A study of Mus musculus with 6 samples.

Results

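The genes described here were 10 members of the p53 and DNA damage response, chosen by name from the 24935 genes of the normalized count table: Trp53, Mdm2, Cdkn1a, Ccng1, Phlda3, Gadd45a, Gadd45b, Gadd45g, Atm and Atr. They were measured by RNA sequencing of the whole left hippocampus of C57BL/6 mice at postnatal day 14 (P14). Newborn pups were kept with their dams in 85% oxygen from P2 to P14 (hyperoxia, 3 libraries) or in room air (air, 3 libraries), with 1 library per mouse. Pups of both sexes were used, but the sources used here give no sex for a library. The group of each library was taken from the name of its column, and libraries are numbered from 1 to 3 within a group, with no pairing between groups. The sources used here conflict on the direction of mRNA differences between these groups, and the files could not settle it. Hyperoxia and air therefore mean the libraries whose columns carry those names, and if the names had been exchanged every sign and every "rose" or "fell" below would turn. All 10 genes were above the low-value limit, a mean normalized count of at least 10, which 17778 genes passed.

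p53, the protein of Trp53, is a transcription factor that is held at a low level by the ubiquitin ligase Mdm2 and is stabilised when DNA is damaged. The kinase ATM responds mainly to DNA double-strand breaks and the kinase ATR to single-stranded DNA at stalled replication forks, and both signal to p53. Stabilised p53 raises the transcription of genes that stop the cell cycle (Cdkn1a, Gadd45a), promote death or restrain survival signals (Phlda3), or feed back on p53 itself (Mdm2, Ccng1). High oxygen is known as a source of reactive oxygen species, which oxidise bases in DNA. Because p53 is controlled largely at the protein level, its mRNA is a measure of neither its amount nor its activity.

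Expression of Trp53 and Mdm2 was lower, and expression of Cdkn1a, Atm and Atr was higher, in the libraries labelled hyperoxia than in those labelled air, with the limit on direction given above. Ccng1, Phlda3 and the 3 Gadd45 genes did not pass the test. Thus 5 of the 10 genes were called at an adjusted p under 0.05 (limma with Benjamini-Hochberg adjustment over all genes tested), 3 higher and 2 lower, with a median log2 fold change of -0.06. Of all genes tested, 30.5% were called, 14.9% higher and 15.6% lower, with a median of -0.01. The libraries of the groups did not overlap for 6 of the 10 genes (3 higher, 3 lower) and for 46.1% of all genes tested (22.3% higher, 23.8% lower). The smallest two-sided p that exact permutation of 3 against 3 libraries can give for a gene is 0.1. The number called was also 5 with edgeR (30.9% of all genes) and with DESeq2 (31.6%), and 4 with a trend on transcript length and GC content removed (34.7%). It was 2 without air library 1, air library 2 or hyperoxia library 1, and 8 without hyperoxia library 2, when 17.1%, 17.4%, 19% and 43.6% of all genes were called.

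The promoter stretches of the 5 called genes are shown because p53 acts on its target genes through sites in DNA. Only bases before a RefSeq start were searched, so sites within a gene, such as in an intron of Mdm2, were not covered. All 10 genes matched the RefSeq promoter table (GRCm38.p6), which gives 2 starts for Cdkn1a and so 11 windows of 250 bases before a start. Each sequence below runs from 5′ to 3′ on the strand of its gene, in lower case, and leaves out annotated untranslated regions, including the start of Wrap53, which runs the opposite way from Trp53. Capitals mark the GC box (GGGCGG or CCGCCC), the CCAAT box (CCAAT or ATTGG), the E-box (CACGTG) and the p53 consensus decamer. For Cdkn1a the upstream of its 2 starts is shown.
Trp53, chr11:69580256-69580358, plus strand: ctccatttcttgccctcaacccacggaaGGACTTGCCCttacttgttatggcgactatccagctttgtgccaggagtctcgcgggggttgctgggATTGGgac
Mdm2, chr10:117710759-117711008, minus strand: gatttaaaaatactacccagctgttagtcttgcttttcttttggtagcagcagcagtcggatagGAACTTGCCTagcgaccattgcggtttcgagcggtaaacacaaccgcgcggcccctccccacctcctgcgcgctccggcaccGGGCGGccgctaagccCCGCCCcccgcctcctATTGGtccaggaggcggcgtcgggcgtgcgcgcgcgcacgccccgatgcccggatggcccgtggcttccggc
Cdkn1a, chr17:29090729-29090975, plus strand: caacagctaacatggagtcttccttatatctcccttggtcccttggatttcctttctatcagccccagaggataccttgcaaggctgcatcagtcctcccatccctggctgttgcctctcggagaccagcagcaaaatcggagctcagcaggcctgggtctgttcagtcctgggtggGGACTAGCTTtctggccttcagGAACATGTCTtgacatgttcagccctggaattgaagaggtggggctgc
Atm, chr9:53536741-53536921, minus strand: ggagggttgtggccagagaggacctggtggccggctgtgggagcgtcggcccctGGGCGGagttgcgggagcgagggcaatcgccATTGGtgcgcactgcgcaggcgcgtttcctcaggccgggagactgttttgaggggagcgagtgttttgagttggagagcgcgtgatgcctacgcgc
Atr, chr9:95857347-95857596, plus strand: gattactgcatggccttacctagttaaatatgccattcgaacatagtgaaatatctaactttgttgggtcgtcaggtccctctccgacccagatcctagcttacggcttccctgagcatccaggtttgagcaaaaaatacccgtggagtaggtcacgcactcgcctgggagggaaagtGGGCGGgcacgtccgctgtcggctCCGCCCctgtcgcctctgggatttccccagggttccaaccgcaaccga

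A p53 decamer was found in 5 of the 11 windows and in 7.12% of 32817 promoters in the table, searched on both strands over the same 250 bases. The upstream Cdkn1a window held 2 decamers, and the windows of Trp53, Mdm2, Ccng1 and Gadd45a held 1 each, while those of Atm, Atr, Phlda3, Gadd45b, Gadd45g and the downstream Cdkn1a start held 0. The GC box was in 7 of the 11 windows (32.7% of all promoters) and the CCAAT box in 7 (33.8%), with 3 CCAAT boxes before Ccng1. The TATA box (TATAAA) was in 3 windows, those of Trp53, Gadd45b and Gadd45g (12.4%), the E-box in 2, those of Gadd45b and Gadd45g (6.02%), and the cyclic AMP response element (TGACGTCA) in 0 (1.55%). In these 11 windows 0 pairs of matches overlapped each other. These are matches of letters and were not tested as binding sites.

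**Figure D1:**
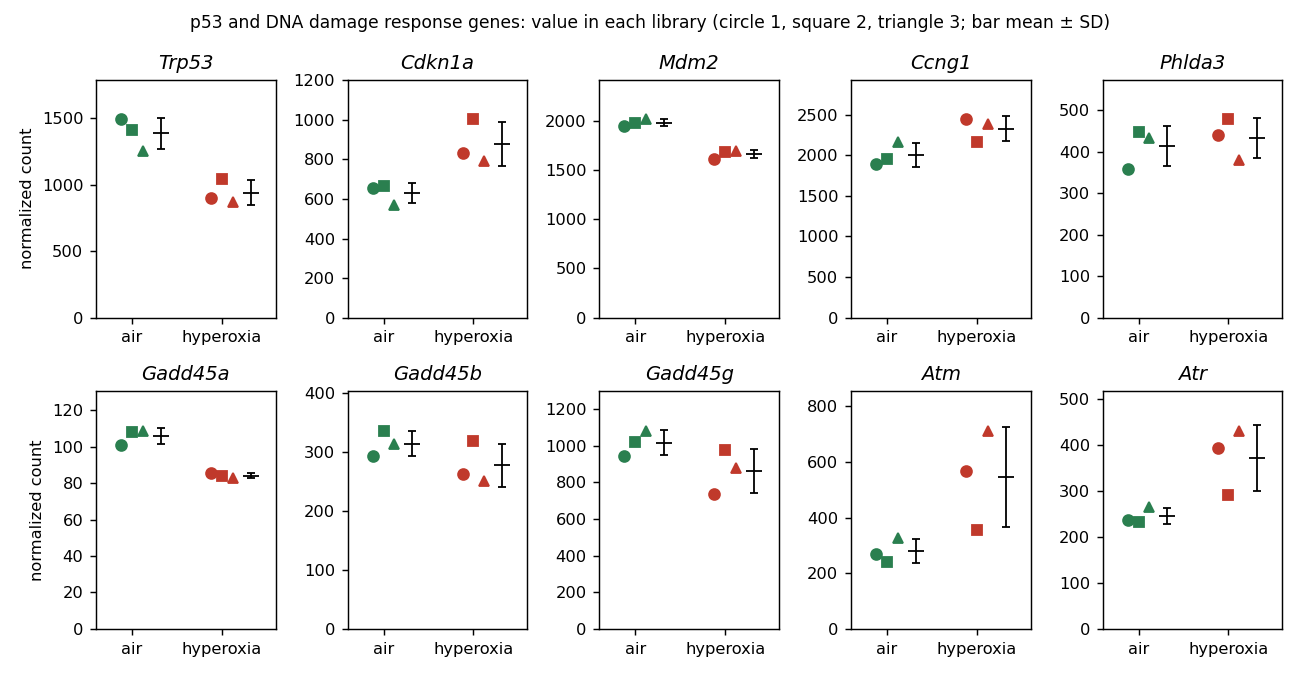
Normalized count of each gene (vertical axes, each starting at 0) in the 3 air libraries (green) and the 3 hyperoxia libraries (red); circles, squares and triangles are libraries 1, 2 and 3, and the bar beside them is the mean ± SD. Trp53, Mdm2 and Gadd45a lie lower in all 3 hyperoxia libraries than in any air library, and Cdkn1a, Atm and Atr lie higher, with hyperoxia library 2 the nearest to air for Atm (355.5 against at most 329).

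Trp53 (ENSMUSG00000059552, chr11:69580359-69591873, plus strand) fell. Its normalized counts, read counts divided by a size factor for each library, were 1493, 1409 and 1258 in the air libraries, given in the order 1, 2, 3 here and throughout, and 903, 1047 and 873 in the hyperoxia libraries. The highest hyperoxia library was below the lowest air library. The mean fell by 32.2%, from 1387 ± 119 (SD, n = 3) to 941 ± 93.4 (SD, n = 3), a log2 fold change of -0.56 (SE 0.10, limma adjusted p = 0.0032). It was called in all 16 alternative settings, with limma, edgeR or DESeq2 adjusted p from 1.7e-05 to 0.024.

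Mdm2 (ENSMUSG00000020184, chr10:117688875-117710758, minus strand), the ubiquitin ligase that p53 itself induces, also fell. Its normalized counts were 1949, 1979 and 2012 in air and 1614, 1682 and 1689 in hyperoxia. The groups did not overlap, and their spread was the narrowest of the 5 called genes. The mean fell by 16.1%, from 1980 ± 31.4 to 1662 ± 41.5 (SD, n = 3), a log2 fold change of -0.25 (SE 0.07, limma adjusted p = 0.018). It was called in 12 of 16 alternatives, and leaving out air library 1, 2 or 3 or hyperoxia library 1 gave limma adjusted p of 0.061, 0.076, 0.077 and 0.073.

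Cdkn1a (ENSMUSG00000023067, chr17:29090976-29100727, plus strand) encodes the cyclin-dependent kinase inhibitor p21, a much used readout of p53 activity that other factors also induce, and it rose. Its normalized counts were 655, 664 and 570 in air and 833, 1003 and 793 in hyperoxia. The groups did not overlap, and the lowest hyperoxia library stood above the highest air library. The mean was 630 ± 52.0 in air and 876 ± 111 in hyperoxia (SD, n = 3), 1.39-fold higher, a log2 fold change of 0.47 (SE 0.11, limma adjusted p = 0.011). It was called in all 16 alternatives, and the log2 fold change was between 0.37 and 0.54 when each library was left out.

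The other p53 targets among the 10 did not pass the test. Ccng1 (ENSMUSG00000020326, chr11:40748552-40755311, minus strand), which encodes cyclin G1, had normalized counts of 1895, 1951 and 2167 in air and 2442, 2158 and 2388 in hyperoxia. Only hyperoxia library 2 lay within the air range, and the log2 fold change was 0.22 (SE 0.08, limma adjusted p = 0.071). Without that library it was 0.27 (limma adjusted p = 0.011). Phlda3 (ENSMUSG00000041801, chr1:135766119-135769136, plus strand), an inhibitor of AKT, had 359, 448 and 433 in air and 440, 478 and 380 in hyperoxia. The groups lay across each other, with a log2 fold change of 0.07 (SE 0.12, limma adjusted p = 0.71), and it was called in 0 of 16 alternatives.

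The Gadd45 genes encode small stress-induced proteins that bind partner kinases and cell cycle proteins, and in neurons Gadd45b and Gadd45g are also induced by activity. Gadd45a (ENSMUSG00000036390, chr6:67035096-67037457, minus strand) had normalized counts of 101, 108 and 109 in air and 85.7, 83.8 and 83.0 in hyperoxia. All 3 hyperoxia libraries were below the air range, but the difference of -0.33 on the log2 scale (SE 0.14) did not pass the test (limma adjusted p = 0.096). The gene had only 74 to 107 reads per library, and the 3 hyperoxia values lay closer together (coefficient of variation 1.68%) than counting error alone gives on average (10.8%). Without the mean-variance trend, which lets the narrow spread of such a gene count for more, the limma adjusted p was 0.027. Its exons share 337 bases with E230016M11Rik on the opposite strand, which had a higher mean normalized count (150 against 95.0), and whether the counting used strand is not stated.

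Gadd45b (ENSMUSG00000015312, chr10:80930073-80932204, plus strand) had normalized counts of 293, 336 and 313 in air and 263, 318 and 251 in hyperoxia (log2 fold change -0.18, SE 0.12, limma adjusted p = 0.27). Gadd45g (ENSMUSG00000021453, chr13:51846678-51848468, plus strand) had 946, 1018 and 1081 in air and 735, 974 and 877 in hyperoxia (log2 fold change -0.24, SE 0.11, limma adjusted p = 0.12). In both genes hyperoxia library 2 was the highest of its group and lay inside the air range, and the groups overlapped. Without that library the log2 fold changes were -0.29 (limma adjusted p = 0.048) and -0.34 (limma adjusted p = 0.015).

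Ratios within a library, which do not depend on its scaling, compared the 3 Gadd45 genes with each other. The log2 ratio of Gadd45b to Gadd45a was 1.56 ± 0.06 in air and 1.70 ± 0.18 in hyperoxia (SD, n = 3; exact permutation p = 0.3). That of Gadd45g to Gadd45a was 3.25 ± 0.05 and 3.33 ± 0.22 (exact permutation p = 0.6), and that of Gadd45g to Gadd45b was 1.69 ± 0.09 and 1.63 ± 0.16 (exact permutation p = 0.7). Adjusted over the 3 ratios, each exact permutation p was 0.7. With 3 libraries in each group this test cannot give a p under 0.1. No ratio could therefore pass 0.05, and the test cannot show that the ratios were alike. With the length and GC trend removed, the difference for Gadd45b over Gadd45a was 0.22 (exact permutation p = 0.1 before adjustment).

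Both damage kinases rose, and with the most spread in hyperoxia. Atm (ENSMUSG00000034218, chr9:53439149-53536740, minus strand) had normalized counts of 269, 242 and 329 in air and 568, 355.5 and 712 in hyperoxia. The groups did not overlap, although hyperoxia library 2 was close to the highest air library. The mean was 280 ± 44.1 in air and 545 ± 180 in hyperoxia (SD, n = 3), 1.95-fold higher, a log2 fold change of 0.91 (SE 0.22, limma adjusted p = 0.014).

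Atr (ENSMUSG00000032409, chr9:95857597-95951781, plus strand) had 237, 233 and 266 in air and 394, 292 and 431 in hyperoxia. The order of the hyperoxia libraries was the same as for Atm, with library 2 lowest and library 3 highest. The mean was 245 ± 17.9 in air and 373 ± 72.2 in hyperoxia (SD, n = 3), 1.52-fold higher, a log2 fold change of 0.58 (SE 0.15, limma adjusted p = 0.016). Its exons share 462 bases with Gm16794 and 726 with 1700065D16Rik on the opposite strand, whose mean normalized counts were 32.2 and 4.48. The coefficient of variation in hyperoxia was 32.9% for Atm and 19.4% for Atr, against a counting error of 4.21% and 5.11%.

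Fold change moved with transcript length over all genes tested, and Atm and Atr have the longest transcripts of the 10 genes. The median log2 fold change was -0.17 for 1435 genes whose longest annotated transcript is under 1 kb, -0.12 from 1 to 2 kb, -0.05 from 2 to 4 kb, 0.10 from 4 to 8 kb and 0.28 for 933 genes over 8 kb. The longest transcript is 9819 bases for Atm (42.6% GC) and 8102 for Atr (40.8% GC). With the smooth trend of each library on length and GC content removed, the log2 fold change of Atm was 0.57 (limma adjusted p = 0.011) and that of Atr 0.26 (limma adjusted p = 0.053). The same correction left Trp53 at -0.50, Mdm2 at -0.28 and Cdkn1a at 0.60, each still called, and Gadd45b at 0.00. Atm and Atr were each called in 12 of 16 alternatives. Leaving out air library 1, air library 2 or hyperoxia library 1 gave limma adjusted p of 0.060, 0.064 and 0.055 for Atm and 0.066, 0.067 and 0.064 for Atr, and without the mean-variance trend that of Atm was 0.056.

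**Figure D2:**
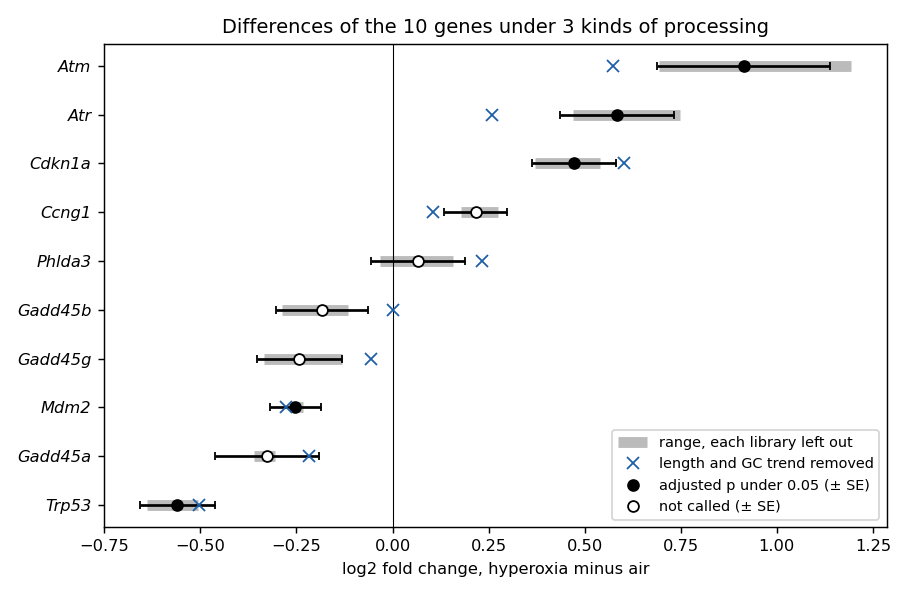
Log2 fold change (horizontal axis, hyperoxia minus air) of each gene: points with bars are the value ± SE, filled where the limma adjusted p is under 0.05; grey bands are the range when each library is left out in turn, and crosses are the values with the length and GC trend removed. Trp53 and Mdm2 stay below 0 and Cdkn1a, Atm and Atr above 0 in all of these, and the crosses of Atm (0.57) and Atr (0.26) lie left of their points.

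**Figure D3:**
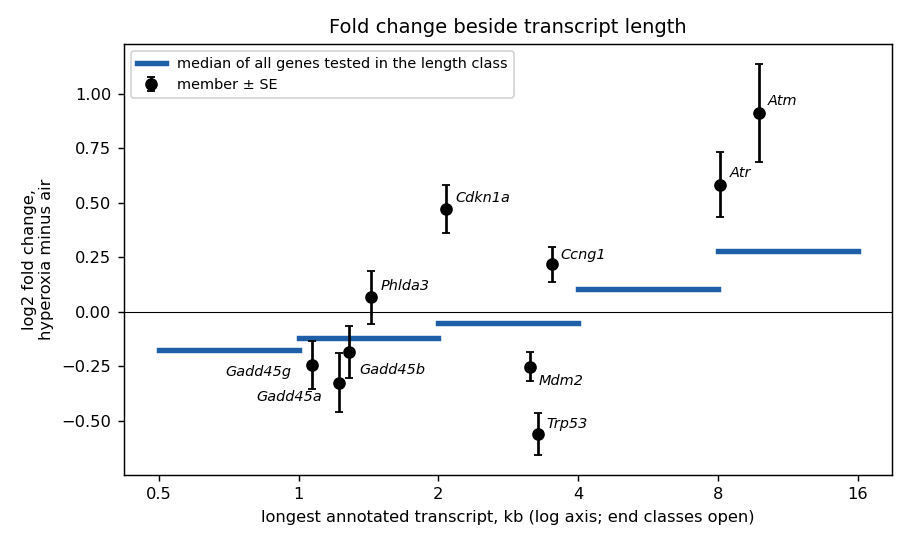
Log2 fold change of the 10 genes ± SE (vertical axis) beside the length of the longest annotated transcript in kb (log axis), with the median of all genes tested in each length class as blue lines. The medians go from -0.17 under 1 kb to 0.28 over 8 kb, and Atm and Atr lie above the median of their class.

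By Pearson r over the 6 libraries, which share the difference between the groups, the 3 genes most like Atm were Kcnk10 (a potassium channel, r = 0.9987), Rsbn1 (r = 0.9984) and Atp7a (a copper transporter, r = 0.9984). Those most like Atr were Zfp458 (r = 0.9991), Vps13a (r = 0.9986) and Snx13 (a sorting nexin, r = 0.9982). Each of these 6 genes was higher in hyperoxia, by 0.46 to 1.12 on the log2 scale, and had hyperoxia library 2 as the lowest of its group, as did Atm and Atr. With 6 libraries and 17778 genes searched, values of this size are a description only.

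Levels were compared between genes per kb of the longest annotated transcript, as normalized counts per kb. In air the order was Gadd45g (947 ± 63.3, SD, n = 3), Mdm2 (630 ± 9.99), Ccng1 (571 ± 41.0), Trp53 (423 ± 36.4), Cdkn1a (303 ± 25.0), Phlda3 (288 ± 33.3), Gadd45b (245 ± 16.7), Gadd45a (86.5 ± 3.60), Atr (30.3 ± 2.21) and Atm (28.5 ± 4.50). The ranges of the neighbours Cdkn1a and Phlda3, Phlda3 and Gadd45b, and Atr and Atm overlapped. In hyperoxia Ccng1 (663 ± 43.0) came before Mdm2 (528 ± 13.2), the reverse of air, and their ranges did not overlap in either group. This reversal rests on the length used, as the undivided air means were 2004 for Ccng1 and 1980 for Mdm2. All annotated exons together span 5.083 kb for Mdm2, against 3.145 kb for its longest transcript, and 3.512 kb by both measures for Ccng1. For Atr they span 23.629 kb against 8.102 kb. Levels per kb of all exons were not compared, and the order could differ. The range of Ccng1 overlapped that of Gadd45g in hyperoxia. There Trp53 (287 ± 28.5) came after Cdkn1a (421 ± 53.6) and Phlda3 (302 ± 34.3), with a range that overlapped that of Phlda3. Atm (55.5 ± 18.3) then came before Atr (46.0 ± 8.91), also with overlapping ranges. Within the Gadd45 family the order was Gadd45g, Gadd45b and Gadd45a in both groups, and the kinases had the lowest means of the 10 genes, although the range of Atm overlapped that of Gadd45a in hyperoxia.

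Around the 10 genes, 160 of 165 other genes of 7 pathway lists were tested, and 39 (24.4%) were called, 14 higher and 25 lower, with a median log2 fold change of -0.01. This share was below the 30.5% of all genes tested. Without hyperoxia library 2 the number was 61, when 7756 of all genes tested were called (43.6%), against 5425 with all libraries. It was from 16 to 20 without hyperoxia library 1 or without any 1 of the air libraries. Of all genes tested, 3048 to 3662 were then called. Trp53rk and Paxx had no row under these symbols, and Cdkn2a, Gdf15 and Rad51b were below the low-value limit.

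Of 19 regulators of p53, 3 rose and 2 fell (26.3%, the share of all genes being 30.5%). With the length and GC trend removed, 1 was called higher and 2 lower. Hipk2, a kinase that phosphorylates p53, had normalized counts of 536, 517 and 778 in air and 1593, 883 and 2272 in hyperoxia. Its groups did not overlap, and hyperoxia library 2 was again the lowest of its group (log2 fold change 1.30, SE 0.29, limma adjusted p = 0.0098). Ppp1r13b, which encodes the p53 cofactor ASPP1, fell by 0.39 on the log2 scale (SE 0.07, limma adjusted p = 0.0028), as did the acetyltransferase gene Kat5 by 0.27 (limma adjusted p = 0.025). The ubiquitin ligase genes Rfwd2 (0.24, limma adjusted p = 0.033) and Trim24 (0.20, limma adjusted p = 0.0495) rose, but Rfwd2 was at -0.13 with the length and GC trend removed. The same correction lost the calls of Kat5 (limma adjusted p = 0.12) and Trim24 (limma adjusted p = 0.060). Mdm4, the partner of Mdm2, was not called (0.34, limma adjusted p = 0.071), nor was the phosphatase gene Ppm1d (-0.05, limma adjusted p = 0.69).

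Of 39 other p53 target genes, 3 rose and 4 fell (17.9%), with a median log2 fold change of 0.03. With the length and GC trend removed, 5 were called higher and 5 lower. Apaf1, which forms the apoptosome, had 405, 382 and 410 in air and 670, 530 and 585 in hyperoxia, and rose by 0.57 (SE 0.10, limma adjusted p = 0.0040). Perp, a membrane protein of cell junctions and death, rose by 0.65 (SE 0.13, limma adjusted p = 0.0059) and the receptor gene Epha2 by 0.79 (limma adjusted p = 0.026). Tigar, which diverts glucose away from glycolysis, had 1570, 1490 and 1448 in air and 918, 957 and 1185 in hyperoxia, and fell by 0.57 on the log2 scale (SE 0.10, limma adjusted p = 0.0038). Psrc1, a spindle protein gene, fell by 0.53 (limma adjusted p = 0.029) and Ephx1, which encodes an epoxide hydrolase, by 0.49 (limma adjusted p = 0.0076). Bax, the pore-forming death gene, was not called (log2 fold change -0.30, limma adjusted p = 0.060), and its groups overlapped.

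Of 28 checkpoint kinases and sensors, 5 rose and 2 fell (25%, the share of all genes being 30.5%). With the length and GC trend removed the balance turned, with 3 called higher and 5 lower. Hus1 and Rad9a encode subunits of the same DNA clamp, the 9-1-1 complex, and moved in opposite directions. Hus1 had 321, 354 and 379 in air and 500, 468 and 527 in hyperoxia and rose by 0.50 (SE 0.10, limma adjusted p = 0.0056), while Rad9a had 319, 290 and 284 against 210, 241 and 203 and fell by 0.45 (SE 0.11, limma adjusted p = 0.015). Tipin, a replication fork protein gene, rose by 0.31 (limma adjusted p = 0.044). Prkdc, the third large damage kinase gene, rose by 0.36 (limma adjusted p = 0.039), but was at -0.01 with the length and GC trend removed. The effector kinase genes of the pathway were not called: Chek1 was at 0.08 (limma adjusted p = 0.77) and Chek2 at -0.56 (SE 0.22, limma adjusted p = 0.079).

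Base excision repair removes oxidised bases, and of 23 of its genes 1 rose and 6 fell (30.4%, the share of all genes being 30.5%), with a median log2 fold change of -0.14. With the length and GC trend removed, 3 were called higher and 4 lower, with a median of -0.13. Apex1, the endonuclease that cuts at sites without a base, had 408, 394 and 380 in air and 193, 142 and 233 in hyperoxia. The groups lay far apart, and the gene fell by 1.08 on the log2 scale (SE 0.17, limma adjusted p = 0.0018). Ogg1, the glycosylase for 8-oxoguanine, had 195, 200 and 192 against 160, 134 and 125 and fell by 0.50 (SE 0.13, limma adjusted p = 0.018), and Polb, the gap-filling polymerase gene, fell by 0.47 (SE 0.07, limma adjusted p = 0.0021). The call of Ogg1 was lost with the length and GC trend removed (-0.33, limma adjusted p = 0.075) and without air library 1, 2 or 3 (limma adjusted p of 0.065, 0.075 and 0.055). Lig3, a DNA ligase gene, rose by 0.42 (limma adjusted p = 0.022). It shares 1826 exon bases with the lower-expressed Rffl on the opposite strand (mean normalized count 229 against 637). Apex1 and Ogg1 share exon bases with higher-expressed genes on the opposite strand, Tmem55b (877 bases, mean normalized count 1299 against 291) and Camk1 (232 bases, 1592 against 168). Rad9a shares 225 bases in the same way with Ppp1ca, whose mean normalized count was 6489 against 258.

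Of 19 nucleotide excision repair genes 1 rose and 6 fell (36.8%), with a median log2 fold change of -0.16. With the length and GC trend removed, 1 was called higher and 4 lower, with a median of -0.14. Ercc8, a factor of repair in transcribed genes, rose by 0.66 (SE 0.11, limma adjusted p = 0.0028), while Xab2 fell by 0.49 (SE 0.07, limma adjusted p = 0.0015), Rad23b by 0.37 (limma adjusted p = 0.0077) and Ercc1 by 0.37 (limma adjusted p = 0.026). Of 24 genes of the repair of DNA breaks on both strands, 1 rose and 5 fell (25%). With the length and GC trend removed, 0 were called higher and 5 lower. Rbbp8, which starts end resection, rose by 0.49 (SE 0.11, limma adjusted p = 0.011), and Xrcc3 fell by 0.42 (limma adjusted p = 0.017), Xrcc4 by 0.34 (limma adjusted p = 0.023) and Polm by 0.33 (limma adjusted p = 0.039). Xab2 and Ercc1 share exon bases with higher-expressed genes on the opposite strand, Camsap3 (570 bases, mean normalized count 1716 against 1486) and Cd3eap (106 bases, 828 against 698). So do Xrcc4 with Tmem167 (112 bases, 1585 against 333) and Xrcc3 with Klc1 (12 bases, 25280 against 353). With the length and GC trend removed the calls of Ercc1, Rbbp8 and Polm were lost (limma adjusted p of 0.14, 0.12 and 0.10). Of 8 mismatch repair genes 0 were called by limma, edgeR or DESeq2 with all libraries and no length and GC correction. With the length and GC trend removed, 2 were called lower by limma. Leaving out hyperoxia library 2 instead gave 2 called higher.

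**Figure D4:**
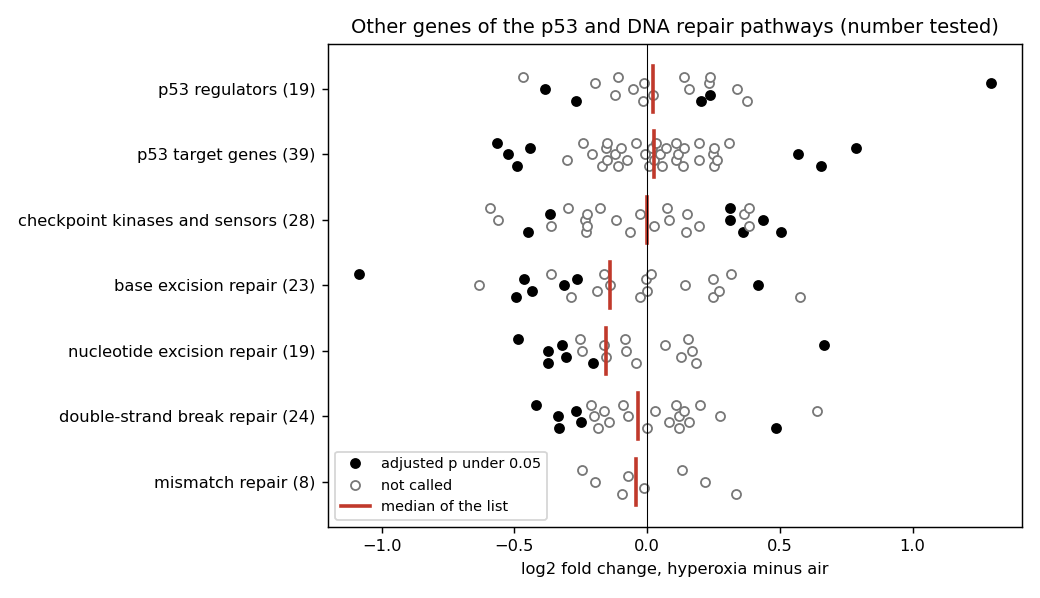
Log2 fold change (horizontal axis, hyperoxia minus air) of the tested genes in the 7 pathway lists, 1 point per gene, filled where the limma adjusted p is under 0.05; red lines are the medians of the lists. Calls lie on both sides of 0, with 6 of 7 on the lower side for base excision repair (median -0.14) and for nucleotide excision repair (median -0.16). With the length and GC trend removed, which is not drawn, base excision repair had 3 calls higher and 4 lower. Nucleotide excision repair then had 1 higher and 4 lower.

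Expression in whole tissue does not tell fewer cells of a type from less RNA per cell, and cell type markers also differed between the groups. The share called among all genes tested was 30.5% (14.9% higher, 15.6% lower). Of 10 oligodendrocyte markers 9 fell (90%), and their summed normalized count was 221680 to 336370 in air and 152830 to 185860 in hyperoxia. Of 10 markers of hippocampal excitatory neurons 6 fell (275140 to 287530 against 191260 to 226750), and of 12 activity-induced early genes 8 fell (19989 to 23056 against 12159 to 13918), these directions too being those of the column names. Markers of endothelial cells (6 of 11 rose, 2 fell; 10315 to 10622 against 11373 to 12936) and of proliferating cells (4 of 10 rose; 1218 to 1304 against 1567 to 2233) were higher in sum in every hyperoxia library. Their part in the differences of the 10 genes was not tested. No marker of any list was at 0 in all libraries.

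Single libraries stood apart in markers of neighbouring tissue. The sum of the choroid plexus markers was 571 to 8382 in hyperoxia and 601 to 1486 in air, with Ttr at 7454 in hyperoxia library 3 and at most 887 elsewhere. Folr1, Clic6, Otx2, Slc4a5, Aqp1 and Kcne2 were also highest in that library. Kl was highest in air library 3 (421, against 385 in hyperoxia library 3). Kcnj13 and Prlr were highest in hyperoxia library 1 (15.9 and 87.5, against 13.5 and 72.4). The thalamic marker genes Tcf7l2 and Synpo2 were highest in hyperoxia library 2, at 1085 and 548, against at most 659 and 192 in the others. Lef1, Ramp3, Gbx2 and Calb2 of the same list were also highest there, Calb2 at 3720. Rora, Prkcd, Plekhg1 and Lhx9 were not, and Plekhg1 was lowest of its group there (1755). The summed thalamic markers were 7445 to 8085 in air and 7857 to 11339 in hyperoxia. Without hyperoxia library 3, 5 of the 10 genes were called (28% of all genes), and without hyperoxia library 2 the log2 fold changes of Trp53, Cdkn1a, Mdm2, Atm and Atr were -0.64, 0.37, -0.26, 1.19 and 0.75, all called. Of 10 astrocyte markers 4 rose and 2 fell. In the other lists calls were in the higher direction: of oligodendrocyte precursor markers 3 rose of 8, of microglial markers 2 rose of 10 and of pericyte and smooth muscle markers 1 rose of 7 tested. Of 9 choroid plexus markers tested 2 rose, and of 9 thalamic markers 3 rose. The shares called for microglia (20%), pericytes and smooth muscle (14.3%) and choroid plexus (22.2%) were below the 30.5% of all genes tested. Those for thalamus (33.3%) and oligodendrocyte precursors (37.5%) were above it.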

How the data were processed

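RNA of the left hippocampus was sequenced by the authors as paired-end reads from strand-specific polyA libraries on a NextSeq500, 3 libraries per group. The submitters' processing notes name FastQC, STAR 2.5.3a, HTSeq and DESeq2; their genome build, annotation and strand setting were not given in the sources used here. For each gene, the signal the authors deposited is a read count divided by a size factor per library. In every library 100% of values came to a whole number of reads (within 0.01), so reads were recovered: 30384052 to 38746972 per library on genes, with a median of 449 to 576 for a tested gene. Replicates differed by more than sampling noise (chi-square per gene 6.51 to 47.2). A second deposited table holds the authors' own comparison (means, log2 fold changes, standard errors, statistics and p-values) and was not used; it is titled with "oil" beside each group, an agent no source explains, so it was no check on direction. Directions rest on the column names of the normalized table alone, and the sources used here conflict on them. Columns carry a group and a number that is not an animal number, so they were used as unpaired replicates of the named group.

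Groups were compared on log2(value + 1) with limma 3.58.1 in R 4.3.3, using its mean-variance trend. This scale understates changes of low genes. Adjusted p-values (Benjamini-Hochberg, threshold 0.05) cover the 17778 genes whose mean value was 10 or more. Single ratios were tested by exact two-sided permutation (Python 3.11.15, numpy 2.4.6). Alternatives were edgeR 4.0.16 and DESeq2 1.42.0 on recovered reads, a pseudocount of 0.5 or 5, no low-value filter, a minimum mean of 50, no trend, quantile normalization, TMM scaling, each library left out, and removal of length and GC trends (mgcv 1.9.3). The fit was tested on simulated data. Coordinates, transcript lengths and exon overlaps come from GENCODE M21 (GRCm38), which holds 99.7% of the identifiers, and promoters from RefSeq.

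The members, the 7 pathway lists and the 11 marker lists were chosen with earlier results of these data known. Genes named were the members, Mdm4, Bax, Ppm1d, Chek1, Chek2, Prkdc and Ogg1, in each list up to 3 called genes per direction whose groups do not overlap, by size, and for each of the 2 members with the largest fold changes the 3 genes with the highest r.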

Additional observations from a re-analysis of the deposited data

How the results depend on the processing

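Of 160 member values over 16 alternatives, 141 kept their direction and their side of the threshold, 3 uncalled values changed sign (Phlda3 at -0.0316 without air library 1 and -0.0077 without hyperoxia library 2, with 0.16 the highest of its values with a library left out, and Gadd45b at 0.0021 with the length and GC trend removed), 12 were no longer called (Mdm2, Atm and Atr, 4 each) and 4 became called (Ccng1, Gadd45a, Gadd45b and Gadd45g, 1 each). Leaving out each library in turn gave 2 to 8 called members, 3048 to 7756 called genes of all tested (5425 with all libraries) and 16 to 61 called pathway genes, the highest each time without hyperoxia library 2. Without the mean-variance trend 25 pathway genes were called in place of 39, and 4224 of all genes tested in place of 5425. With the length and GC trend removed, Rfwd2 was at -0.13 and Prkdc at -0.0092, neither still called (limma adjusted p of 0.33 and 0.94). The uncalled Chek1 was then at -0.0468 (-0.0049 to 0.22 when each library was left out). Under the same correction 8 further named genes kept their sign but were no longer called: Atr, Ogg1, Kat5, Trim24, Ercc1, Rbbp8, Polm and Zfp458. The uncalled log2 ratio differences ranged from -0.0128 (without hyperoxia library 2) to 0.21 for Gadd45g over Gadd45a and from -0.14 to 0.0168 (without hyperoxia library 1) for Gadd45g over Gadd45b when each library was left out. No paired analysis was possible because the columns carry no number that pairs mice. The cause of these changes was not tested. Depth limits Gadd45a most, with 74 to 107 reads per library.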
